A study of Mus musculus with 12 samples.

Results

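The RUNX genes Runx1, Runx2 and Runx3, their shared partner Cbfb and the ETO-family corepressor genes Cbfa2t2 and Cbfa2t3 were followed in early thymic progenitors, the cells that seed T-cell development in the thymus. These 6 genes were chosen by name, and all 6 were among the 13016 genes of the deposited expression table. Messenger RNA had been sequenced from 12 libraries of 100 sorted mouse cells each, 4 per genotype, on the C57BL/6 strain. All 3 groups carried floxed alleles of Ezh2 and of Runx1. In the group called dKO_Flt3ITD these were combined with Rag1Cre and with 1 Flt3 allele holding an internal tandem duplication (Flt3 ITD/+). The group called dKO had Rag1Cre and no Flt3 mutation, and the control group had the floxed alleles with no Cre named. Rag1Cre is a recombinase under the control of Rag1, a gene of early lymphoid cells, so recombination was aimed at cells that had switched Rag1 on. The labels do not say which exons were floxed or whether each library is a different animal. The p-values therefore describe spread among libraries, which may be technical.

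RUNX proteins bind DNA through the Runt domain and need the Cbfb protein, which does not touch DNA itself, to bind tightly. Runx1 is required for blood stem cells to form and for early T-cell development, Runx3 acts in killer T cells and innate lymphocytes, and Runx2 is best known from bone. The ETO-family proteins do not bind DNA directly and bring histone deacetylase complexes to transcription factors. The question put to the data was whether the paralogues and partners differ when Runx1 is targeted. Both mutant groups have Ezh2 targeted together with Runx1, and no group has Runx1 targeted alone or Cre alone. The parts of Runx1, Ezh2 and Cre in any difference from control therefore cannot be told apart.

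Each RUNX gene can start from a distal promoter, and the distal windows share a stretch that is shown because it holds RUNX motifs. In the RefSeq promoter windows (GRCm38.p6, 250 bases before to 50 after the start), the sequences below are given 5′ to 3′ on the strand of the gene, with the pair of motifs AACCACA in its shared context in capitals.
Runx1, chr16:92826025-92826054, minus strand: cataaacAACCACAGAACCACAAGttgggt
Runx2, chr17:44814582-44814611, minus strand: acaaacAACCACAGAACCACAAGtgcggtg
Runx3, chr4:135120504-135120533, plus strand: tccctcAACCACAGAACCACAAGgccaggc
The capitals lie 28 to 44 bases after the annotated start in Runx1, 23 to 39 after it in Runx2, and at −135 to −119 in Runx3. This run of 17 letters, chosen after the windows were read and searched on both strands, was in 4 of 32851 windows, or 0.0122%. The fourth belongs to the predicted gene Gm16225, whose window covers the same bases of chromosome 4 as that of Runx3. The shorter core ACCACA, searched on both strands and contained in the longer run, was in 16.8% of all windows. The windows of Cbfb and Cbfa2t2, both windows of Cbfa2t3 and the proximal windows of Runx1 and Runx3 held no such core. No binding was measured here, and a motif match is a description only.

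The promoters of Runx1 also differ in base composition. The stretches below run from −250 to −101 of the distal and the proximal start, which lie 128745 bases apart, with CpG dinucleotides in capitals.
Runx1 distal, chr16:92826175-92826324, minus strand: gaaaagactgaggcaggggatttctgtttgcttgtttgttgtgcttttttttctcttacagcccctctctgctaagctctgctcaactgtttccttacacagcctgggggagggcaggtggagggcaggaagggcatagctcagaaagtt
Runx1 proximal, chr16:92697430-92697579, minus strand: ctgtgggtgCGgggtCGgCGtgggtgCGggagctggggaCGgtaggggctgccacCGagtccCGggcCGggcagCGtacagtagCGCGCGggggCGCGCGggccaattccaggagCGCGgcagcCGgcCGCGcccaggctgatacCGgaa
The whole 300-base distal window of Runx1 held 2 CpGs and the proximal one 35, against a median of 7 over all windows. The expression values below are sums over the whole gene, so transcripts of these promoters cannot be told apart.

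Levels are given as RPKM, reads scaled to gene length and library size, so genes can be set beside each other. The whole reads behind the members' values ranged from 484 to 9803 per library, with a counting error of 4.55% to 1.01%, which covers counting error only. Over the genes of the table, libraries totalled 13623436 to 33985972 reads. Mean correlation with the remaining libraries was lowest in control 1, at 0.786, and the limma fits were also run without the first library of every group. In these bulk samples fewer cells of a type and less RNA per cell cannot be told apart. All 11 early thymic progenitor markers, among them Kit, Flt3 and Notch1, were in the table, and none was at 0 in all libraries of a group. Their summed level was 604 to 694 RPKM in dKO_Flt3ITD, 612 to 666 in dKO and 773 to 993 in control libraries. Limma called 1 of 11 down in dKO_Flt3ITD against control, where 0.505% of all genes were called down. It called 0 in dKO against control, and voom called 0 in both. At an unadjusted p under 0.05 limma gave 3 of 11 in dKO and 7 of 11 in dKO_Flt3ITD, against 9.18% and 13.4% of all genes. Their median log2 fold change was −0.16 and −0.78, with 7 and 8 negative. In dKO_Flt3ITD 1 marker averaged below 1 RPKM.

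In control cells the order of mean levels was Cbfb (34.6 ± 10.50 RPKM; SD, n = 4), Runx1 (21.2 ± 4.57), Cbfa2t3 (20.9 ± 4.49), Runx3 (18.98 ± 11.1), Runx2 (8.73 ± 2.99) and Cbfa2t2 (8.13 ± 3.59). Runx1, Cbfa2t3 and Runx3 were closer to each other than their spread, and so were Runx2 and Cbfa2t2. Runx1 stood at the 73.9 percentile of all genes in control libraries, against 85.9 in dKO_Flt3ITD and 85.0 in dKO. Cbfb and Runx1 had the highest means in all 3 groups, with Runx1 above Cbfb only in dKO_Flt3ITD. Runx1t1, the remaining ETO-family gene, was at 0 to 0.0434 RPKM in all 12 libraries and was not tested.

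**Figure D1:**
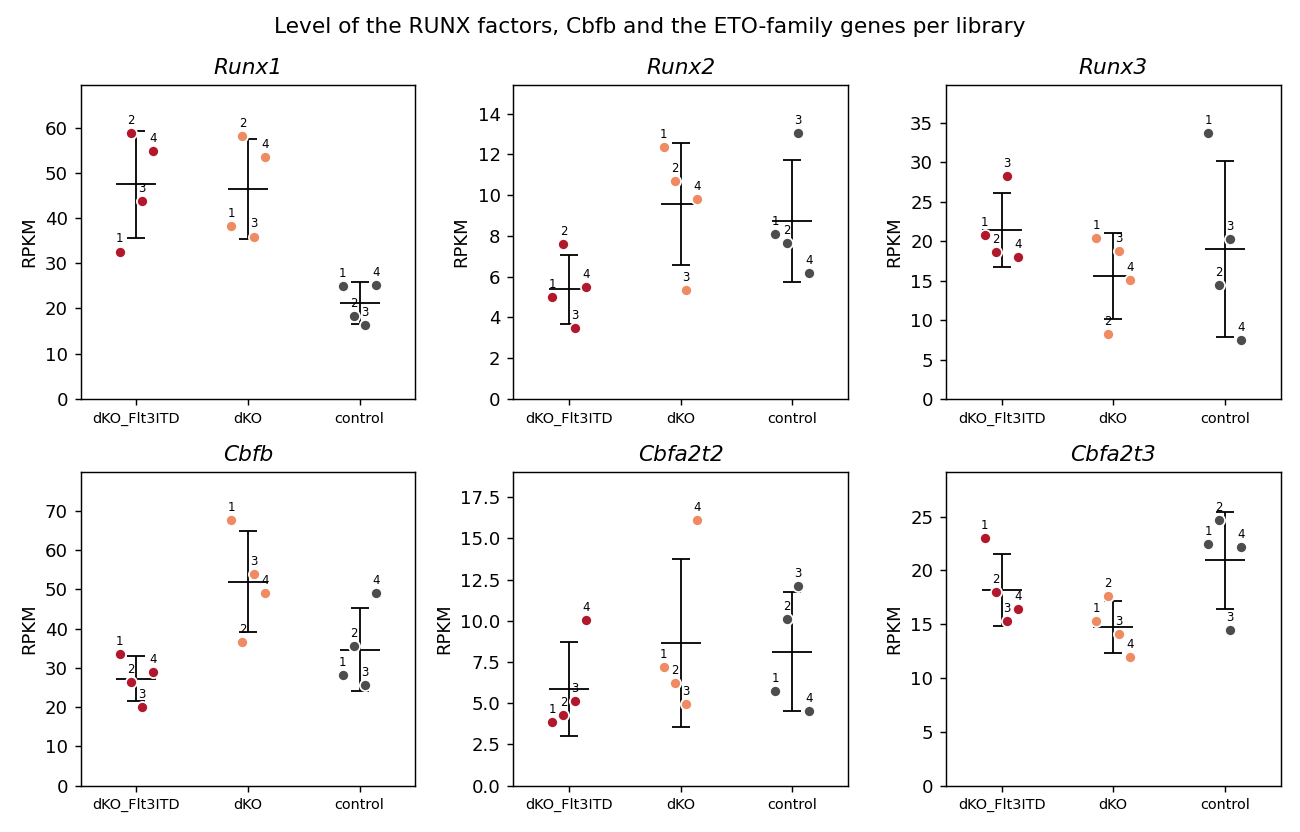
RPKM of each of the 6 genes (vertical axis, from 0) in dKO_Flt3ITD, dKO and control libraries. Points are libraries numbered by replicate, and the horizontal line and bar are the mean and SD (n = 4). All Runx1 points of both mutant groups lie above all control points, and all Cbfb points of dKO_Flt3ITD lie below all those of dKO.

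Runx1 (chromosome 16, 92601466 to 92826149, GRCm38, minus strand) was the member with the clearest difference. It was higher where its alleles and those of Ezh2 were targeted. Its level was 32.6, 58.8, 43.7 and 54.8 RPKM in dKO_Flt3ITD libraries 1 to 4. It was 38.1, 58.2, 35.9 and 53.4 RPKM in dKO libraries, against 25.0, 18.3, 16.3 and 25.3 RPKM in control libraries. Every mutant library thus lay above every control library, while the mutant groups overlapped throughout. A value over the whole gene also counts transcripts that lack the floxed part, so this value does not check the deletion, and the groups are named as labelled. The other targeted gene, Ezh2, had 16.4 ± 5.59 RPKM in dKO_Flt3ITD, 22.6 ± 5.87 in dKO and 39.8 ± 5.83 in control libraries (SD, n = 4). Flt3, which carries the duplication, had 33.2 ± 26.3 RPKM in dKO_Flt3ITD, 29.1 ± 11.5 in dKO and 78.3 ± 25.7 in control libraries (SD, n = 4).

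For dKO against control the log2 fold change of Runx1 on the log2(RPKM + 1) scale was 1.09 (SE 0.33, 95% interval 0.38 to 1.79, ratio of mean RPKM 2.19). The exact two-sided permutation p was 0.0286, the smallest that 4 libraries against 4 allow. In limma over 10690 genes, with Benjamini-Hochberg adjustment, the adjusted p was 0.184, so the difference did not pass over all genes. For dKO_Flt3ITD against control the log2 fold change was 1.11 (SE 0.33, 95% interval 0.41 to 1.82), with an exact permutation p of 0.0286 and a limma adjusted p of 0.124. These comparisons share the control libraries. Between dKO_Flt3ITD and dKO the difference was 0.03 (95% interval −0.68 to 0.73, limma adjusted p = 0.991).

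The absence of overlap has to be read against the background. In dKO against control 1 of 6 members, Runx1, had groups that did not overlap, and so had 6.3% of all tested genes. In dKO_Flt3ITD against control it was again Runx1, against 7.67% of all genes, and in dKO_Flt3ITD against dKO it was Cbfb, against 4.28%. In all, 18 exact tests were run on the members. No member passed limma over all genes in any comparison, where 1.02%, 1.5% and 0% of all genes were called in dKO against control, dKO_Flt3ITD against control and dKO_Flt3ITD against dKO. At an unadjusted p under 0.05 limma gave 1 member in each comparison, the one just named, against 9.18%, 13.4% and 7.71% of all genes. Voom on the whole reads also called 0 of 6 members, where it called 0.0281%, 0.253% and 0% of all genes. At an unadjusted p under 0.05 voom gave the same 1 member in each comparison, against 8.73%, 14% and 7.03% of all genes.

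The separation of Runx1 held under median ratio scaling, with log2 fold changes of 1.08 in dKO and 1.11 in dKO_Flt3ITD against control and an exact permutation p of 0.0286 in each. It did not hold under another scaling. With libraries rescaled to an equal sum of RPKM, Runx1 overlapped between groups, with a log2 fold change of 0.96 and an exact permutation p of 0.0571 in dKO, and 0.87 and 0.114 in dKO_Flt3ITD against control. That scaling put the median of all genes at −0.11 and −0.20 in these comparisons.

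Markers of other cells are given beside this result, from some of the 10 marker lists. All marker lists were chosen with earlier results of these data known, so their counts are no independent support. Of 8 mast cell and basophil markers 3 were in the table, with a summed level of 195 to 569 RPKM in dKO_Flt3ITD, 118 to 324 in dKO and 16.7 to 127 in control libraries, most of it Cpa3. Limma and voom called 0 of these 3 in each comparison, and the dKO and control sums overlapped. At an unadjusted p under 0.05 limma gave 1, 2 and 0, against 9.18%, 13.4% and 7.71% of all genes. The 8 of 10 macrophage markers in the table summed to 50.4 to 154 RPKM in dKO_Flt3ITD, 45.6 to 141 in dKO and 19.2 to 66.8 in control libraries. Limma called 2 of 7 tested macrophage markers up in dKO_Flt3ITD against control, where 0.992% of all genes were called up. It called 0 in dKO against control, and voom called 0 in each comparison. Signs were 7 positive and 0 negative in dKO, and 6 positive and 1 negative in dKO_Flt3ITD against control. Their median log2 fold changes were 1.05 and 0.59, where those of all genes were 0.01 and 0.00. At an unadjusted p under 0.05 limma gave 1 and 2 of 7, against 9.18% and 13.4% of all genes. Vcam1 was at 0 in all dKO_Flt3ITD libraries. Of 12 granulocyte and monocyte markers 7 were in the table. They summed to 98.4 to 1433 RPKM in dKO_Flt3ITD, 130 to 315 in dKO and 114 to 407 in control libraries. Of 5 tested, limma called 1 up in dKO_Flt3ITD against control and 0 in dKO against control, and voom called 0. Of 11 natural killer and innate lymphoid cell markers 5 were in the table. Their sums were 232 to 1482, 563 to 1841 and 796 to 1697 RPKM in that order. Nkg7 had the highest mean, at 670 RPKM in dKO_Flt3ITD, 955 in dKO and 1214 in control libraries. Of these 5 markers, 3 averaged below 1 RPKM in dKO_Flt3ITD, 1 in dKO and 3 in control libraries. Prf1 was at 0 in all dKO_Flt3ITD libraries. Limma and voom called 0 of the 2 tested. The part of these lists in the Runx1 result was not tested.

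Runx2 (chromosome 17, 44495987 to 44814797, minus strand) had 4.98, 7.59, 3.47 and 5.49 RPKM in dKO_Flt3ITD libraries. In dKO libraries it had 12.4, 10.7, 5.33 and 9.83 RPKM, against 8.07, 7.64, 13.1 and 6.17 RPKM in control libraries. The dKO and control libraries were mixed, and 3 of 4 dKO_Flt3ITD libraries lay below all controls. For dKO against control the log2 fold change was 0.11, with a 95% interval of −0.83 to 1.05 and an exact permutation p of 0.714, while it was −0.022 without control 4. For dKO_Flt3ITD against control it was −0.60 (interval −1.54 to 0.34, exact permutation p = 0.0571), and against dKO −0.71 (interval −1.65 to 0.23, exact permutation p = 0.0857). Exons of an antisense gene, Runx2os1, cover 5.87% of the exon bases of Runx2, and the sources used here do not say whether strand was used in counting.

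Plasmacytoid dendritic cells are known for high Runx2, and 8 of 11 of their markers were in the table. Of 6 tested, limma called 2 down in dKO against control and 3 down in dKO_Flt3ITD against control, with 0 up, and 0 in dKO_Flt3ITD against dKO, where 2 had an unadjusted p under 0.05. Voom called 0, 1 and 0 in these comparisons. Their median log2 fold change was −1.43 in dKO and −1.61 in dKO_Flt3ITD against control. Signs were 2 positive and 4 negative in dKO, and 3 positive and 3 negative in dKO_Flt3ITD. Of all genes limma called 0.234% and 0.505% down in these comparisons. In dKO_Flt3ITD against dKO 7.71% of all genes had an unadjusted p under 0.05. The list was chosen with earlier results of these data known, so its counts are no independent support. The summed level was 103 to 533 RPKM in dKO_Flt3ITD, 104 to 166 in dKO and 187 to 413 in control libraries. Bst2 had the highest mean of these markers in each group, at 281 RPKM in dKO_Flt3ITD, 124 in dKO and 120 in control libraries. Cox6a2 was at 0 in all dKO_Flt3ITD libraries. The part of these markers in the Runx2 values was not tested.

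Runx3 (chromosome 4, 135120652 to 135177990, plus strand) had 20.8, 18.6, 28.2 and 18.0 RPKM in dKO_Flt3ITD libraries. Its level was 20.4, 8.20, 18.7 and 15.1 RPKM in dKO libraries, against 33.7, 14.4, 20.3 and 7.50 RPKM in control libraries. The control libraries alone spanned almost the whole range, from the highest value of the series in control 1 to the lowest in control 4. For dKO against control the log2 fold change was −0.16 (interval −1.11 to 0.79, exact permutation p = 0.886), while it was 0.17 without control 1 and 0.10 without dKO 2. For dKO_Flt3ITD against control it was 0.32 (interval −0.63 to 1.28, exact permutation p = 0.514), and −0.027 without control 4. The interval of Runx1 was 0.38 to 1.79 in dKO and 0.41 to 1.82 in dKO_Flt3ITD against control. It overlapped those of both paralogues in dKO and of Runx3 in dKO_Flt3ITD, and lay above that of Runx2 in dKO_Flt3ITD. Differences between genes were not tested. The intervals of Runx2 and Runx3 include decreases, so neither paralogue is shown to be unchanged.

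**Figure D2:**
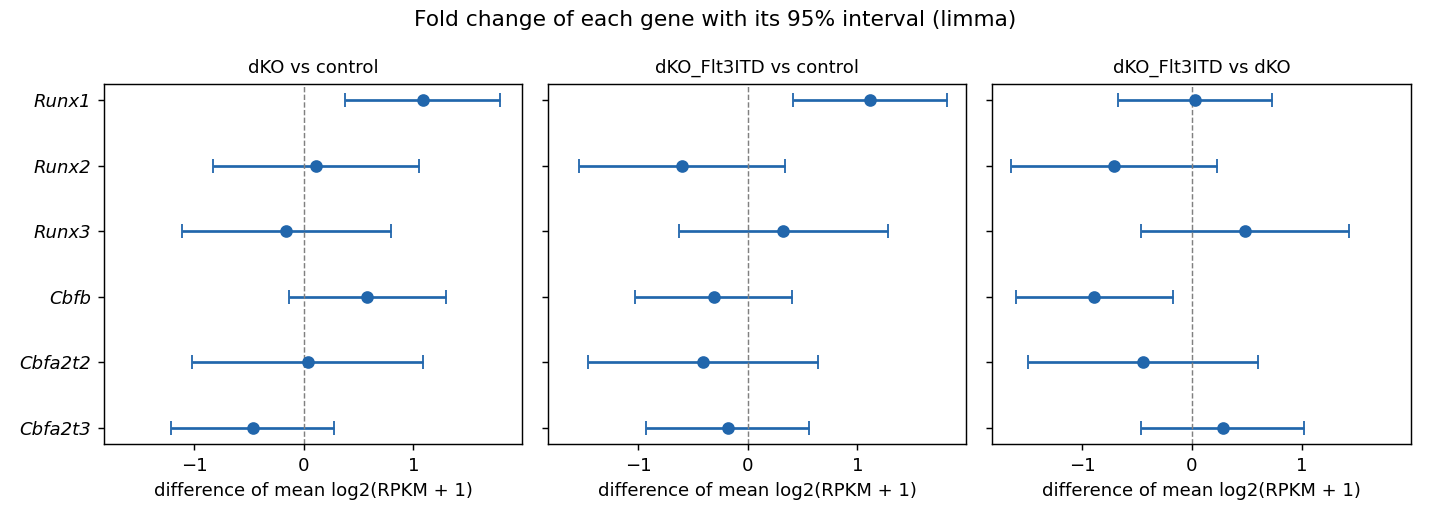
Difference of mean log2(RPKM + 1) (horizontal axis) for each gene in dKO against control, dKO_Flt3ITD against control and dKO_Flt3ITD against dKO, with 95% intervals from limma over all 12 libraries. The interval lies above 0 for Runx1 in both comparisons with control and below 0 for Cbfb in dKO_Flt3ITD against dKO, and it includes 0 for the other points.

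Taken as a sum, the RUNX genes reached 58.4, 85.0, 75.4 and 78.3 RPKM in dKO_Flt3ITD libraries. In dKO libraries the sum was 70.8, 77.1, 59.97 and 78.3 RPKM, against 66.8, 40.3, 49.7 and 38.9 RPKM in control libraries. The mutant sums overlapped with control 1 and lay above the other controls. Sums and shares over the members carry no test. Runx2 and Runx3 together gave 26.8 ± 3.48 RPKM in dKO_Flt3ITD, 25.1 ± 5.71 in dKO and 27.7 ± 12.4 in control libraries (SD, n = 4). Their means differed by less than the spread between libraries. Runx1 made up 63.2 ± 7.38% of the sum in dKO_Flt3ITD, 64.4 ± 9.496% in dKO and 45.1 ± 14.1% in control libraries. Runx2 made up 7.27 ± 1.96% in dKO_Flt3ITD, 13.2 ± 3.53% in dKO and 18.3 ± 6.02% in control libraries. Here every dKO_Flt3ITD library (4.61% to 8.92%) was below every control library (12.1% to 26.3%). The sum also holds Runx1, which was higher in dKO_Flt3ITD, and the RPKM of Runx2 itself overlapped between these groups.

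Cbfb (chromosome 8, 105170674 to 105217989, plus strand), the stabilising partner of all RUNX proteins, set the mutant groups apart from each other. Its level was 33.6, 26.5, 19.9 and 29.1 RPKM in dKO_Flt3ITD libraries, against 67.8, 36.6, 54.0 and 49.2 RPKM in dKO libraries. Control libraries had 28.2, 35.7, 25.6 and 49.0 RPKM. All dKO_Flt3ITD libraries lay below all dKO libraries, and the controls overlapped with both. The log2 fold change of dKO_Flt3ITD against dKO was −0.89 (SE 0.34, interval −1.61 to −0.18), with an exact permutation p of 0.0286. The limma adjusted p was 0.548, so Cbfb did not pass over all genes. For dKO against control the log2 fold change was 0.58 (interval −0.14 to 1.30, exact permutation p = 0.0571), and for dKO_Flt3ITD against control −0.31 (interval −1.03 to 0.40, exact permutation p = 0.314). The separation of dKO_Flt3ITD from dKO also held with libraries rescaled to an equal sum, with a log2 fold change of −1.01 and an exact permutation p of 0.0286.

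The summed level of later thymocyte markers separated the same groups, mostly through Rag2, a recombinase gene. The 9 of 11 such markers in the table summed to 6.85 to 62.8 RPKM in dKO_Flt3ITD, 65.1 to 157 in dKO and 29.2 to 45.6 in control libraries, with Rag2 averaging 27.8 RPKM in dKO_Flt3ITD and 84.2 in dKO and Cd3g at 0 in all dKO_Flt3ITD libraries. Limma and voom called 0 of the 6 tested in dKO_Flt3ITD against dKO, with 2 positive and 4 negative. At an unadjusted p under 0.05 limma gave 1 of 6, against 7.71% of all genes. Their part in the Cbfb result was not tested.

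**Figure D3:**
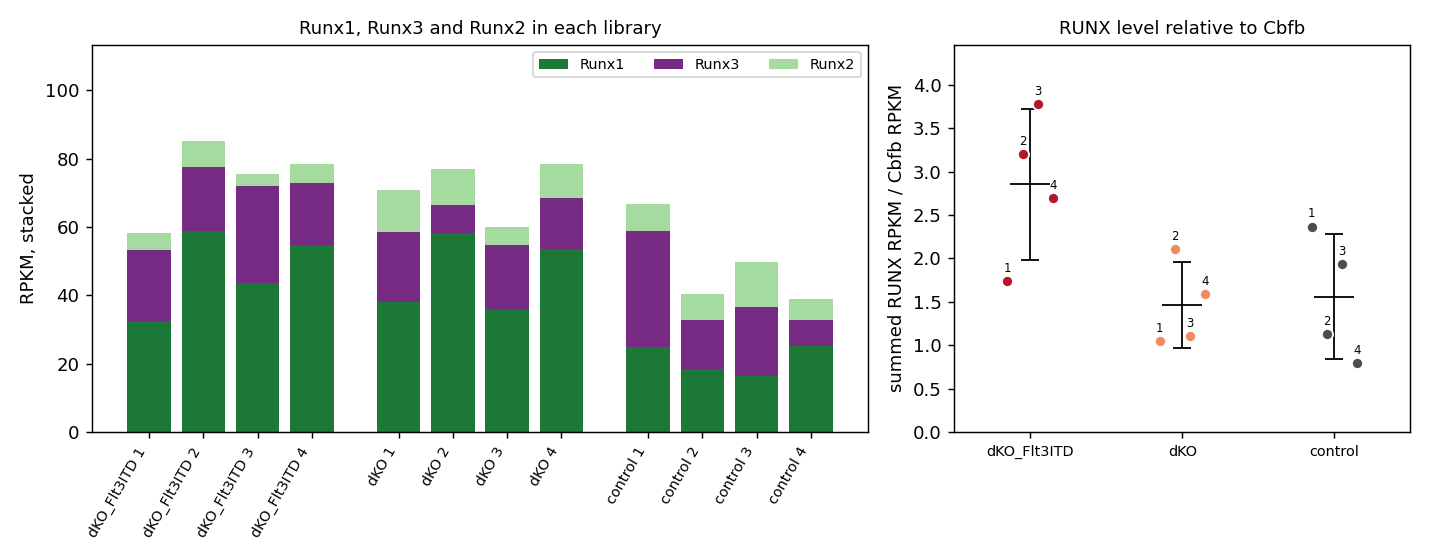
Left, RPKM of Runx1, Runx3 and Runx2 stacked for each library. Right, the summed RUNX level divided by the level of Cbfb, with libraries numbered by replicate and the mean and SD (n = 4). The ratio was 1.74 to 3.78 in dKO_Flt3ITD, 1.05 to 2.10 in dKO and 0.794 to 2.37 in control libraries.

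Set against its partner, RUNX messenger RNA was most abundant in dKO_Flt3ITD. The ratio of summed RUNX to Cbfb was 1.74, 3.21, 3.78 and 2.69 in dKO_Flt3ITD libraries. It was 1.05, 2.10, 1.11 and 1.59 in dKO libraries, against 2.37, 1.13, 1.94 and 0.794 in control libraries. Libraries 2, 3 and 4 of dKO_Flt3ITD were above all others, and library 1 lay within the range of the other groups. For Runx1 alone the ratio to Cbfb was 1.82 ± 0.584 in dKO_Flt3ITD, 0.975 ± 0.467 in dKO and 0.637 ± 0.175 in control libraries (SD, n = 4). Each dKO_Flt3ITD library (0.969 to 2.22) was above each control library (0.513 to 0.885) for that ratio. Runx1 itself separated these groups, while Cbfb overlapped between them, so this is no separate support. These ratios are of messenger RNA and carry no test.

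Cbfa2t3 (chromosome 8, 122625141 to 122699109, minus strand), a corepressor of the Tal1 complex in blood progenitors, had 23.0, 18.0, 15.3 and 16.4 RPKM in dKO_Flt3ITD libraries. Its level was 15.3, 17.6, 14.1 and 11.9 RPKM in dKO libraries, against 22.5, 24.7, 14.4 and 22.2 RPKM in control libraries. The dKO libraries lay below 3 of 4 controls, but control 3 lay among them. The log2 fold change was −0.46 for dKO against control (interval −1.21 to 0.28, exact permutation p = 0.0857), −0.18 for dKO_Flt3ITD against control (exact permutation p = 0.429) and 0.28 for dKO_Flt3ITD against dKO (exact permutation p = 0.114).

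Cbfa2t2 (chromosome 2, 154436481 to 154539356, plus strand), a corepressor of the same family, had 3.89, 4.27, 5.15 and 10.04 RPKM in dKO_Flt3ITD libraries. It had 7.19, 6.23, 4.94 and 16.1 RPKM in dKO libraries, against 5.76, 10.1, 12.1 and 4.50 RPKM in control libraries. The groups overlapped throughout, with the largest spread relative to the mean of the 6 genes in the mutant groups. The log2 fold change was 0.04 for dKO against control (interval −1.02 to 1.09, exact permutation p = 0.943), while it was −0.28 without dKO 4, −0.18 without control 4 and −0.077 without control 1. For dKO_Flt3ITD it was −0.41 against control (exact permutation p = 0.229) and −0.45 against dKO (exact permutation p = 0.371). Cbfa2t3 made up 75.8 ± 10.2% of both genes' summed RPKM in dKO_Flt3ITD, 64.6 ± 15.01% in dKO and 72.0 ± 12.8% in control libraries.

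Genes that work with RUNX and ETO proteins did not pass the test. Of all genes 9.18%, 13.4% and 7.71% had an unadjusted p under 0.05 in limma in the comparisons named next. Of 17 DNA-binding partners and members of the Tal1 complex 13 were tested, and limma called 0 in each comparison, with 1, 3 and 0 at an unadjusted p under 0.05 in dKO against control, dKO_Flt3ITD against control and dKO_Flt3ITD against dKO. Their median log2 fold change was 0.31 in dKO and 0.25 in dKO_Flt3ITD against control, where that of all genes was 0.01 and 0.00. Lmo2, a bridging protein of the Tal1 complex, had 76.7 ± 13.9 RPKM in dKO_Flt3ITD and 31.2 ± 25.7 in control libraries (SD, n = 4, limma adjusted p = 0.119, or 0.0338 without the first library of every group). Tal1 itself had 0.625 ± 0.602 RPKM in dKO and 3.72 ± 2.96 in control libraries (limma adjusted p = 0.438). Gata2, a stem cell factor gene, had 16.4 ± 19.6 RPKM in dKO_Flt3ITD and 3.73 ± 3.22 in dKO libraries (limma adjusted p = 0.652).

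Among 17 tested corepressors of the RUNX and ETO proteins limma called 0 in each comparison, and 0 had an unadjusted p under 0.05. Their median log2 fold change was −0.07 in dKO and −0.17 in dKO_Flt3ITD against control. The smallest p was that of Tle3 in dKO, of Tbl1xr1 in dKO_Flt3ITD against control and of Hdac3 in dKO_Flt3ITD against dKO, with limma adjusted p of 0.784, 0.371 and 0.763. Of 13 coactivators and modifiers limma called 0 in each comparison. At an unadjusted p under 0.05 there were 2, 2 and 0, against 9.18%, 13.4% and 7.71% of all genes. Ccnd3, a D-type cyclin that binds Runx1, had 31.7, 36.7, 68.2 and 31.9 RPKM in dKO_Flt3ITD libraries, against 21.0, 14.7, 11.6 and 11.4 in control libraries (limma adjusted p = 0.118). Its groups did not overlap in that comparison, as in 7.67% of all genes. Wwp1 had the smallest p in dKO against control (limma adjusted p = 0.315) and Carm1 in dKO_Flt3ITD against dKO (limma adjusted p = 0.779). Voom called 0 genes of these 3 lists.

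Genes known as RUNX targets included members that passed. Of 10 tested target genes of lymphoid cells 1 rose and 1 fell in dKO against control, and 1 rose and 2 fell in dKO_Flt3ITD against control, with 0 called in dKO_Flt3ITD against dKO. At an unadjusted p under 0.05 there were 5, 3 and 3 of 10 in these comparisons, against 9.18%, 13.4% and 7.71% of all genes. The share of all genes called was 0.786% up and 0.234% down in dKO, and 0.992% up and 0.505% down in dKO_Flt3ITD. The list was drawn up with results of these data known, so its count is no independent support.

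Il4, a cytokine gene with a silencer bound by Runx3 in T cells, had 106, 278, 96.9 and 76.5 RPKM in dKO_Flt3ITD libraries. It had 80.6, 75.5, 99.4 and 125 RPKM in dKO libraries, against 0, 0.119, 0.238 and 0.0411 in control libraries. Tcf7, a T-cell specification factor gene, was at 0 to 0.814 RPKM in dKO_Flt3ITD and 0 to 0.0535 in dKO libraries, against 4.08 to 42.4 in control libraries. Lck, a kinase gene of T-cell receptor signalling, had 42.9, 28.6, 33.5 and 6.83 RPKM in dKO_Flt3ITD libraries, against 146, 269, 390 and 170 in control libraries. Limma adjusted p was 1.48e-07 for Il4 and 0.00232 for Tcf7 in dKO against control, and 5.89e-08 for Il4, 0.00283 for Tcf7 and 0.00281 for Lck in dKO_Flt3ITD against control. None of these calls was lost in 8 fits that left out 1 library each. Voom called 0 of the 10 genes in dKO against control (adjusted p = 0.074 for Il4 and 0.222 for Tcf7). In dKO_Flt3ITD against control voom called Il4 and Lck, while Tcf7 had an adjusted p of 0.153.

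**Figure D4:**
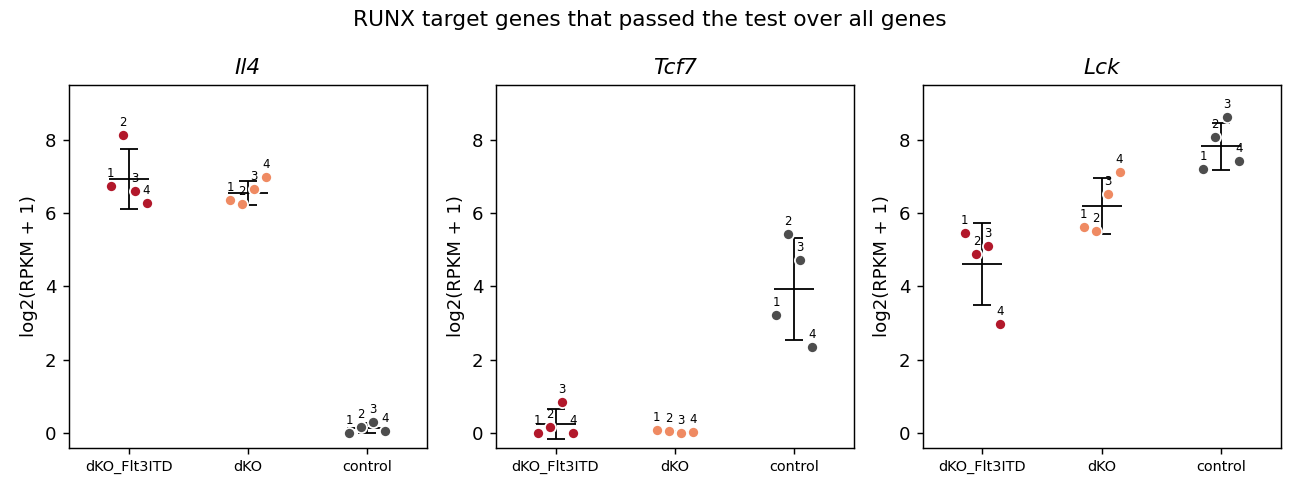
Level as log2(RPKM + 1) (vertical axis) of Il4, Tcf7 and Lck in dKO_Flt3ITD, dKO and control libraries, numbered by replicate, with the mean and SD (n = 4). Il4 is near 0 in control libraries and Tcf7 is near 0 in both mutant groups, while Lck in dKO lies between the other groups.

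Of 10 tested RUNX targets of myeloid and stem cells limma called 0 in each comparison. At an unadjusted p under 0.05 there were 5, 5 and 1, against 9.18%, 13.4% and 7.71% of all genes. This list too was drawn up with results of these data known. Voom also called 0. Gfi1, a transcriptional repressor gene of blood cells, had 14.7, 5.45, 3.55 and 6.29 RPKM in dKO libraries, against 0.0237, 2.63, 1.65 and 0.111 in control libraries (limma adjusted p = 0.197). Hhex, a homeobox gene of early lymphoid cells, had 42.8, 61.3, 59.5 and 64.3 RPKM in dKO_Flt3ITD libraries, against 182, 139, 117 and 85.6 in control libraries (limma adjusted p = 0.0727). Both genes separated their groups without passing. Groups did not overlap in 6.3% of all genes in dKO and 7.67% in dKO_Flt3ITD against control. Nfkbia had the smallest p in dKO_Flt3ITD against dKO (limma adjusted p = 0.333).

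The genes whose pattern was most like that of Runx1 over the 12 libraries were Dst, Plscr4 and Casp12, with Pearson correlations of log2(RPKM + 1) of 0.93, 0.92 and 0.91. Casp12 averaged 20.3 RPKM in dKO_Flt3ITD, 19.7 in dKO and 0.00866 in control libraries. For Cbfb they were Hprt, Cept1 and Trim16, with 0.88 each, and Trim16 averaged 5.89 RPKM in dKO_Flt3ITD, 27.0 in dKO and 18.1 in control libraries. For Runx2 they were Nol8, Rnf138 and Thoc1 (0.83, 0.82 and 0.80), and for Runx3 Ranbp3, Mvb12b and Athl1 (0.93, 0.88 and 0.85). For Cbfa2t2 they were Gamt, Fmo5 and Sdha (0.93, 0.88 and 0.85), and for Cbfa2t3 Celf1, Zfp831 and Mrgpre (0.83, 0.82 and 0.79). These are the highest of 10690 genes over 12 libraries that share groups, so they are descriptions and carry no test.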

How the data were processed

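The authors deposited 1 table of RPKM values for 12 libraries of 100 sorted cells each, and the labels' protocols name SMARTer full-length cDNA. Tools listed in the submitters' processing notes are TopHat2 2.0.10, SAMtools 0.1.19 and HTSeq 0.5.4p5, with build mm10. The sources used here give no roles for them. Steps between values gave whole reads in 100% of genes (tolerance 0.001). The divisor behind the deposited RPKM was 0.801 to 1.15 times the total reads of the genes in the table, relative to the mean over libraries. Reads outside these genes are not known, so whether a further scaling was used cannot be told.

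Limma 3.58.1 (R 4.3.3) was fitted to log2(RPKM + 1) over all 12 libraries with an intensity trend. It covered the 10690 genes that reached 1 RPKM in 4 or more libraries, with Benjamini-Hochberg adjustment over them at 0.05. Fold changes on this scale understate low genes. Members also had exact two-sided permutation tests. Voom, which models reads, was run on the whole reads with the deposited divisors as library sizes. Both fits were tested on simulated data. A planned count-model fit was also run on them, and its values are not reported. Genes named are the 6 members, Ezh2, Flt3, per list and comparison the called genes or that with the smallest p, and the 3 most alike per member. Members and lists were chosen with earlier results of these data known. Alternatives changed the pseudocount, filter, scaling, trend, libraries fitted and replicate block, or left out libraries. Promoters came from RefSeq (GRCm38.p6), where all 6 members matched by symbol, and positions from GENCODE on GRCm38, which mm10 also names.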

Additional observations from a re-analysis of the deposited data

How the results depend on the processing

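In 360 fits of a member no adjusted p was under 0.05, and the lowest adjusted p was 0.0811, for Runx1 in dKO_Flt3ITD against control. Runx1 against control ranged from 0.96 to 1.25 in dKO and from 0.87 to 1.36 in dKO_Flt3ITD, and Cbfb in dKO_Flt3ITD against dKO from −1.05 to −0.76, each with 1 sign. Rescaling to an equal sum of RPKM made the Runx1 difference 0.96 (exact permutation p = 0.0571) in dKO and 0.87 (exact permutation p = 0.114) in dKO_Flt3ITD against control. It also turned the sign of differences near 0, namely Runx2 (−0.015) and Cbfa2t2 (−0.081) in dKO against control and Runx1 (−0.089) in dKO_Flt3ITD against dKO. Without the first library of every group, an alternative chosen after seeing the data, Runx2, Runx3 and Cbfa2t2 in dKO against control were −0.040, 0.021 and −0.042. With 1 library left out, signs turned for Runx2 (−0.022 to 0.34), Runx3 (−0.51 to 0.17) and Cbfa2t2 (−0.28 to 0.24) in dKO against control, for Runx3 (−0.027 to 0.65) in dKO_Flt3ITD against control, and for Runx1 (−0.086 to 0.19) in dKO_Flt3ITD against dKO. With 3 libraries against 4 the smallest exact p is 0.0571, so the permutation test was not repeated there.

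The number of genes called over all genes was 109 in dKO and 160 in dKO_Flt3ITD against control. It was 64 and 91 without a filter, 3 and 27 in voom, and 45 and 105 without the first library of every group. With 1 library left out it was 58 to 95 and 94 to 187. In dKO_Flt3ITD against dKO it was 0, with 824 at an unadjusted p under 0.05. It was 3 with a pseudocount of 5, 2 with equal sums, 1 each with no filter, the 5 RPKM filter, median ratio scaling, the 8 libraries compared and without the first libraries, and 0 to 6 with 1 library left out. The cause was not tested. A planned edgeR fit on the whole reads was run, and its values are not reported.

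Same-numbered libraries did not deviate together, with correlations of −0.147 to 0.126, and a library correlated best with its own number in 8 of 24 cases. With the replicate block limma called 85, 116 and 0 genes in dKO against control, dKO_Flt3ITD against control and dKO_Flt3ITD against dKO, and 0 members. The members' spread between libraries exceeds the counting error, and its source was not tested.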

Other observations

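The members did not move as a block across libraries. Over the 12 libraries, which share 3 groups, the Pearson correlations of log2(RPKM + 1) between members ran from −0.46 for Cbfa2t2 with Cbfa2t3 to 0.52 for Runx2 with Cbfa2t2. Runx1 with Cbfb had 0.04, and Runx1 with Cbfa2t3 −0.42. These are descriptions with no test. Among the lists of other cells, the 3 of 9 thymic stroma markers in the table stayed between 9.23 and 33.2 RPKM in sum over all libraries.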
